A study of Mus musculus with 48 samples.

Results

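Pdcd1 encodes PD-1, an inhibitory receptor of T cells, and Cd274 encodes PD-L1, its principal ligand. Both were followed as the rows that carry exactly these symbols in 2 mouse tables, 1 for each T cell system. Each symbol had 1 cluster of transcription start sites per table, so the sum over a gene and the value of its cluster are the same. The pair makes up 2 of 10098 genes (2 of 18025 clusters) in the DO11.10 T hybridoma and 2 of 10219 genes (2 of 17272 clusters) in primary CD4+ T cells.

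CAGE (cap analysis of gene expression), which counts tags from the capped ends of transcripts, was run on 48 libraries of total RNA from purified T cells. The hybridoma, a T cell line on a BALB/c x AKR/J background whose receptor recognises an ovalbumin peptide, received that peptide (pOVA) at 0, 1, 10, 100, 1000 or 10000 nM, with or without PD-1 engagement (26 libraries in 12 groups). Primary CD4+ T cells of BALB/cCrSlc mice received 2C11, an antibody to CD3, at 0, 10, 100, 1000 or 10000 ng/ml, with or without PD-1 engagement (22 libraries in 10 groups). Each group held 2 libraries, and each 10000 group held 3. The hybridoma is a single cell line, and the labels do not give how PD-1 was engaged, which cells presented the peptide, how long stimulation lasted, the age of the mice, or whether the libraries of a group came from different cultures or mice. What the p-values measure is therefore the spread between these libraries, which may be technical.

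PD-1 reaches the T cell surface after the T cell receptor has signalled, with NFAT as a described activator of Pdcd1. When bound by PD-L1 on another cell, its cytoplasmic tail recruits the phosphatase SHP-2 (Ptpn11), which lowers signalling through CD28 and the T cell receptor. PD-L1 is made by antigen-presenting cells and by many other cells including activated T cells, and interferon signalling through IRF1 is its best-known inducer.

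The Pdcd1 cluster lay at chr1:95949132-95949161 in the hybridoma and at chr1:95949130-95949158 in CD4 cells, on the minus strand (build mm9, coordinates as deposited). The Cd274 cluster lay at chr19:29441941-29441954 and chr19:29441941-29441953, on the plus strand. Each gene thus started within nearly the same short stretch in both systems. The promoter windows below show the sequence around the annotated start of each gene. They are from RefSeq on GRCm38.p6, another build than the one used for the clusters, whose place within them was not tested, and run from 250 bases before the RefSeq start to 25 bases after it (chr1:94052529-94052803, minus strand, and chr19:29367188-29367462, plus strand). Capitals mark motif matches.
Pdcd1: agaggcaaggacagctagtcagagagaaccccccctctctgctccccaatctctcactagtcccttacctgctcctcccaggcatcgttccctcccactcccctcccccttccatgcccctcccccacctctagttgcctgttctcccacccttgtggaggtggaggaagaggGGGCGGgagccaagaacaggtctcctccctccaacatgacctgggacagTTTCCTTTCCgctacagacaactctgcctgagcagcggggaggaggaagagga
Cd274: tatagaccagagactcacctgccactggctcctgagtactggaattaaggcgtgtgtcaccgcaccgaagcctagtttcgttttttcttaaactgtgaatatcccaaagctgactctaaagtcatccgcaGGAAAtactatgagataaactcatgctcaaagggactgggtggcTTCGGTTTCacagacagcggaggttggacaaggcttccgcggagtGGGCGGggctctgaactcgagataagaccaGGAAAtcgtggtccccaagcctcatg

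In the Pdcd1 window the capitals are 2 adjoining copies of the NFAT core GGAAA on the other strand (read here as TTTCC), beginning at positions -28 and -23 from the RefSeq start, and a GC box GGGCGG at -77. The Cd274 window held GGAAA at -120 and across the start at -1, an IRF core GAAANNGAA at -76 on the other strand, and a GC box at -31. Searched on both strands, neither held AP-1 (TGANTCA), GAS (TTCNNNGAA), kB (GGGNNTTCC), TATA box (TATAAA) or E box (CACGTG) letters. Among 32851 RefSeq promoter windows of 300 bases, 61.3% held GGAAA, 35.7% the GC box and 8.56% the IRF core. The full 300-base window of Pdcd1 held 5 CpG and 60.7% G and C, and that of Cd274 held 15 CpG and 52.7% G and C, against medians of 7 CpG and 52.7% over all windows. A match is a run of letters and does not show that a factor binds.

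Values are RPM, the tags of a start cluster scaled to a fixed library total. Library totals, recovered from the steps between low values, were 7.79 to 19.7 M (mega) tags in the hybridoma and 4.42 to 22.8 M in CD4 cells. A Pdcd1 value rested on 569 to 4123 tags in the hybridoma and on 60 to 1927 in CD4 cells. A Cd274 value rested on 54 to 1484 and on 209 to 2944 tags. T cell markers were abundant, 6 of 7 measured in the hybridoma (summed level 1340 to 2113 RPM, no cluster listed under Cd4) and 7 of 7 in CD4 cells (3181 to 4859 RPM). Of 7 myeloid markers only Cst3 was measured in either system (72.0 to 97.1 and 146 to 194 RPM). Of 6 cytotoxic or NK markers 1 was measured in the hybridoma and 3 in CD4 cells, with sums of 3.77 to 8.23 and 21.7 to 40.2 RPM. The 5 B cell markers, whose cells can also carry PD-L1, summed to 429 RPM with engagement and 499 RPM without it in both hybridoma libraries of dose 0 numbered 2, against 33.9 to 133 RPM in the other 24. The 4 genes of class II antigen presentation summed to 41.5 to 657 RPM in the hybridoma and 189 to 533 RPM in CD4 cells.

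**Figure D1:**
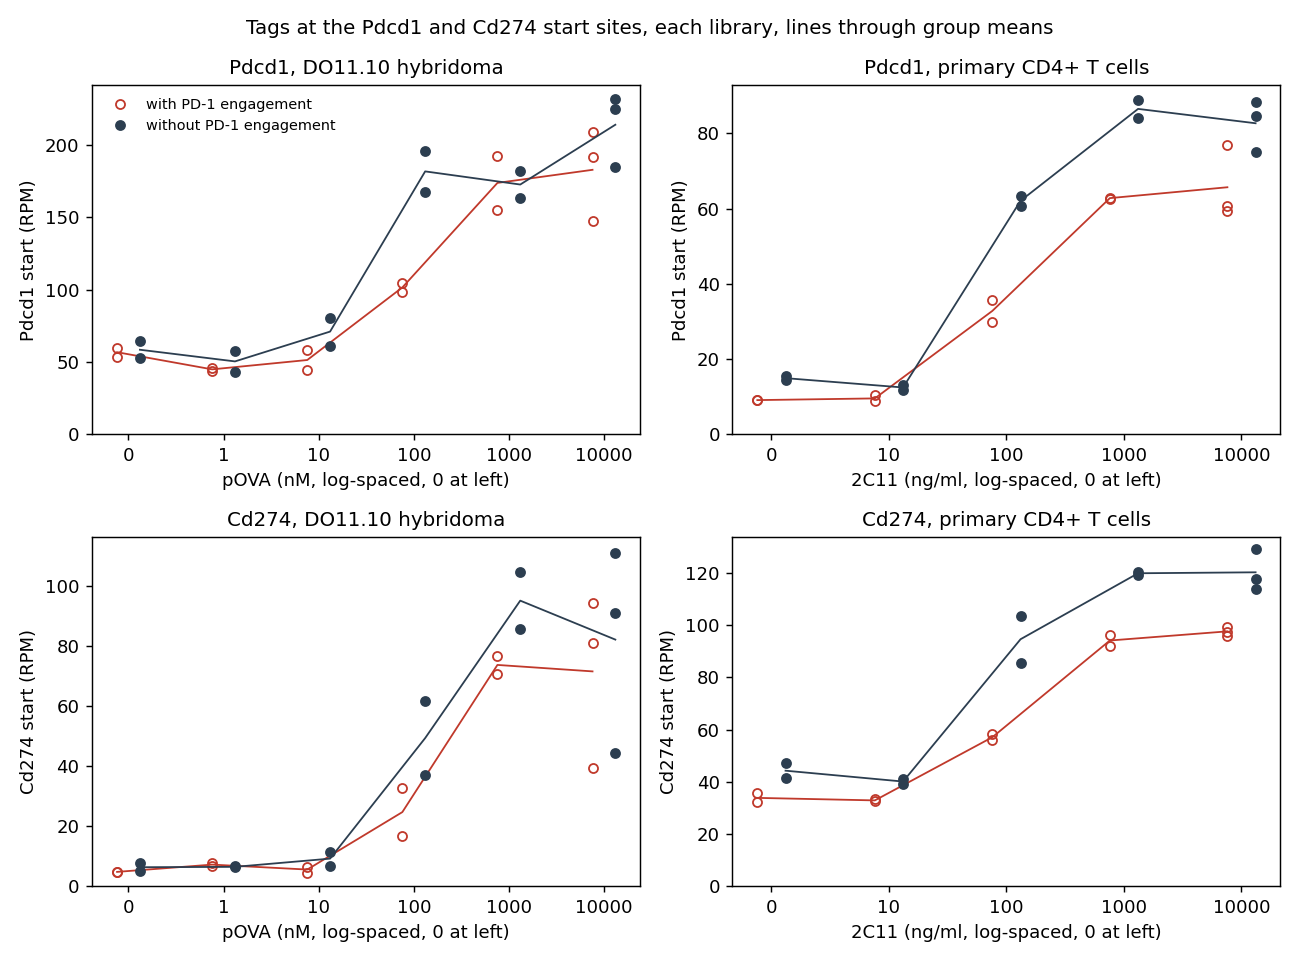
Tags at the Pdcd1 and Cd274 start sites in RPM (vertical axis, from 0) against dose, for the hybridoma (left) and CD4 cells (right). Open red circles are libraries with PD-1 engagement, filled dark circles are libraries without it, and lines join group means. All 4 panels stay low up to 10 nM or 10 ng/ml, and at 100 the engaged libraries lie below the unengaged ones.

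The first comparison asks how antigen dose alters both genes in the hybridoma. With PD-1 engagement, Pdcd1 stood at 53.8 and 59.9 RPM at 0 nM, 45.8 and 44.2 at 1 nM, 58.1 and 44.8 at 10 nM, 105 and 98.4 at 100 nM, 192 and 155 at 1000 nM, and 192, 209 and 148 at 10000 nM. Without engagement it stood at 52.8 and 64.4 RPM at 0 nM, 57.6 and 43.4 at 1 nM, 80.9 and 61.4 at 10 nM, 196 and 168 at 100 nM, 182 and 163 at 1000 nM, and 232, 225 and 185 at 10000 nM. The receptor gene was thus read in every unstimulated library. One unengaged library at 10 nM already lay above those of dose 0, and all libraries did from 100 nM, where the unengaged libraries were already near their highest level and the engaged ones were not.

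With engagement, Cd274 stood at 4.76 and 4.81 RPM at 0 nM, 6.66 and 7.76 at 1 nM, 4.55 and 6.58 at 10 nM, 16.6 and 32.8 at 100 nM, 70.7 and 76.9 at 1000 nM, and 81.0, 39.6 and 94.4 at 10000 nM. Without engagement it stood at 5.01 and 7.67 RPM at 0 nM, 6.63 and 6.30 at 1 nM, 6.83 and 11.6 at 10 nM, 37.0 and 61.8 at 100 nM, 85.7 and 105 at 1000 nM, and 91.1, 44.4 and 111 at 10000 nM. The ligand gene was low without antigen and rose steeply between 10 and 1000 nM. Its libraries numbered 2 at 10000 nM were the low ones in both arms.

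Both genes rose at 100, 1000 and 10000 nM against dose 0, in either arm, by limma's test with Benjamini-Hochberg adjustment over 10094 genes. Without engagement, Pdcd1 was 1.62 higher on the log2(RPM + 1) scale at 100 nM (SE 0.19, adjusted p = 1.11e-05), 1.55 at 1000 nM (SE 0.19, adjusted p = 1.03e-05) and 1.85 at 10000 nM (SE 0.17, adjusted p = 1.86e-07). The last is a 3.61-fold difference, larger than that of 99.0% of the genes tested. Cd274 was 2.76 higher at 100 nM (SE 0.41, adjusted p = 0.00029), 3.73 at 1000 nM (SE 0.41, adjusted p = 3.64e-06) and 3.43 at 10000 nM (SE 0.38, adjusted p = 2.06e-06). At the top dose that is 10.8-fold, above 99.8% of the genes. With engagement, the differences at 10000 nM were 1.66 for Pdcd1 (SE 0.17, adjusted p = 1.4e-06) and 3.56 for Cd274 (SE 0.38, adjusted p = 2.16e-06). In bulk RNA, a larger share of responding cells and more RNA per cell cannot be told apart.

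Many genes passed these tests: without engagement 6.03% of the genes tested at 100 nM, 30.6% at 1000 nM and 28.8% at 10000 nM, and with engagement 1.43%, 19.7% and 26.4%. The median of all genes was shifted by -0.18 without engagement at 10000 nM, and relative to it Pdcd1 was 2.03 and Cd274 3.60 higher. At 1 and 10 nM neither gene passed in either arm, with differences of -0.33 to 0.27 for Pdcd1 and 0.05 to 0.50 for Cd274.

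The engaged response at 100 nM was the least secure of these calls. Pdcd1 was 0.83 higher (SE 0.19, adjusted p = 0.0299) and Cd274 2.08 higher (SE 0.41, adjusted p = 0.0152). Leaving out any 1 of the 4 libraries of the Pdcd1 comparison gave an adjusted p of 0.0575 to 0.232. The Cd274 call was lost without the engaged library numbered 2 at dose 0 (adjusted p = 0.149) or at 100 nM (adjusted p = 0.131). With both dose 0 libraries rich in B cell markers left out, the differences were 0.90 (adjusted p = 0.137) and 2.08 (adjusted p = 0.125), and with the B cell marker level as a covariate the Pdcd1 difference was 0.90 (adjusted p = 0.0577).

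The order of the levels follows from the steps between neighbouring doses. Without engagement, the step of 10 to 100 nM passed for Pdcd1 (1.35, SE 0.19, adjusted p = 1.38e-04) and for Cd274 (2.30, SE 0.41, adjusted p = 0.00241), where 2.47% of the genes passed. With engagement the same step passed for Pdcd1 (0.98, SE 0.19, adjusted p = 0.0111) and for Cd274 (1.91, SE 0.41, adjusted p = 0.0331), where 0.604% of the genes passed. No step between 0, 1 and 10 nM passed after adjustment for either gene, nor did that of 1000 to 10000 nM. Without engagement, the Pdcd1 step of 1 to 10 nM was 0.49 (SE 0.19, limma's unadjusted p = 0.0173). The libraries of these doses did not overlap, so a rise of Pdcd1 there is left undecided.

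The step of 100 to 1000 nM read differently in the arms, though the difference between arms was not tested. With engagement, Pdcd1 was 0.76 higher (adjusted p = 0.0667) and Cd274 1.61 higher (adjusted p = 0.0872). The Pdcd1 step passed with edgeR (0.78, adjusted p = 0.00396), DESeq2 (0.78, adjusted p = 7.79e-06) and quantile normalization (0.71, adjusted p = 0.0157). It did not pass with the B cell marker covariate, and the Cd274 step passed with none of these. With replicate number as a term shared by all doses, both steps passed (adjusted p = 0.015 and 0.0394). That term is not the pairing within a dose, since it takes same-numbered libraries of different doses as related. Over all genes, the difference between libraries numbered 1 and 2 correlated between doses at a median of only 0.0514 with and 0.0942 without engagement. Without engagement, the step was -0.07 for Pdcd1 (adjusted p = 0.918) and 0.97 for Cd274 (adjusted p = 0.35). Single libraries decided some steps to 100 nM. The engaged Pdcd1 step gave an adjusted p of 0.0945 to 0.312 without the 10 nM library numbered 2 or either 100 nM library. The engaged Cd274 step gave 0.127 to 0.491 without either 10 nM library or the 100 nM library numbered 2. The unengaged Cd274 step gave 0.0692 without the 10 nM library numbered 1 and 0.0709 without the 100 nM library numbered 2.

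The next comparison asks what PD-1 engagement did to the receptor's own gene and to its ligand gene at each dose of antigen. Engaged and unengaged hybridoma libraries of the same dose and number resembled each other over all genes, so each was also set against its own partner. The labels state no such pairing, which was inferred from these data. At 100 nM, Pdcd1 averaged 102 ± 4.52 RPM with engagement and 182 ± 20.2 RPM without it (mean ± SD, n = 2 each), with differences of -46.6% and -41.2% within the pairs. Cd274 averaged 24.7 ± 11.5 RPM with engagement and 49.4 ± 17.5 RPM without it (n = 2 each), with differences of -55.1% and -46.8% within the pairs. The groups did not overlap for either gene, though both libraries of each group lay far apart for the ligand. The share of all genes without overlap was not counted.

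At 10000 nM, Pdcd1 averaged 183 ± 31.7 RPM with engagement and 214 ± 25.3 RPM without it (n = 3 each), with differences of -20.2% to -6.98% within the pairs. Cd274 averaged 71.6 ± 28.6 RPM with engagement and 82.2 ± 34.3 RPM without it (n = 3 each), with differences of -15.2% to -10.8% within the pairs. Here the groups overlapped for both genes while every pair had the same direction. Over the 11 pairs of stimulated libraries, Pdcd1 was lower with engagement in 9 and Cd274 in 9. At 10 nM and above Cd274 was lower in 9 of 9 pairs and Pdcd1 in 8 of 9, and at 1 nM Cd274 was 0.452% and 23.2% higher. How many of all genes were lower in as many pairs was not counted.

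Tested by limma over the mean of the stimulated doses, engagement lowered neither gene past the threshold when the pairs were ignored. It lowered both when the pairs were blocked. With the pairs ignored, Pdcd1 did pass with edgeR (adjusted p = 0.00463), DESeq2 (adjusted p = 1.61e-05) and quantile normalization (adjusted p = 0.0109), and Cd274 did not. The Pdcd1 difference was -0.33 (SE 0.08, adjusted p = 0.0597), and blocked it kept that size with an SE of 0.03 (adjusted p = 3.60e-05). The Cd274 difference was -0.41 (SE 0.18, adjusted p = 0.798), and blocked its SE was 0.05 (adjusted p = 1.46e-04). Without the block 0.931% of the genes passed, and with it 6.51%. The median over all genes was below 0.01 in size, and the differences of Pdcd1 and Cd274 were lower than those of all but 1.27% and 0.872% of the genes. With the B cell marker level as a covariate the differences were -0.35 (adjusted p = 0.0409) and -0.43 (adjusted p = 0.517).

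By dose, the difference was widest at 100 nM. There it was -0.83 for Pdcd1 (SE 0.19, adjusted p = 0.0525), and blocked it passed (SE 0.08, adjusted p = 3.64e-05), as it did with edgeR's quasi-likelihood test (-0.79, adjusted p = 0.00531). For Cd274 it was -1.001 (SE 0.41, adjusted p = 0.908) and blocked it also passed (SE 0.11, adjusted p = 1.26e-04), where 4.22% of the genes passed. At 10 nM Pdcd1 was -0.46 (adjusted p = 1) and passed when blocked (SE 0.08, adjusted p = 0.0376), where 0.149% of the genes passed. Cd274 was -0.61 there (blocked adjusted p = 0.0651). At 1000 nM the differences were 0.00 for Pdcd1 and -0.36 for Cd274 (blocked adjusted p = 0.988 and 0.0722), and at 10000 nM they were -0.23 and -0.19 (blocked adjusted p = 0.0803 and 0.363). Unstimulated cells showed -0.04 for Pdcd1 and -0.32 for Cd274 (blocked adjusted p = 0.938 and 0.49).

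Whether engagement acted differently under stimulation than at dose 0 was tested directly. Over the mean of the stimulated doses the difference of differences was -0.30 for Pdcd1 (95% interval -0.72 to 0.13, adjusted p = 1) and -0.09 for Cd274 (95% interval -1.03 to 0.86, adjusted p = 1). At 100 nM alone it was -0.79 for Pdcd1 and passed when blocked (SE 0.11, adjusted p = 0.00318), where 1.4% of the genes passed. For Cd274 it was -0.68 (blocked SE 0.16, adjusted p = 0.056).

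**Figure D2:**
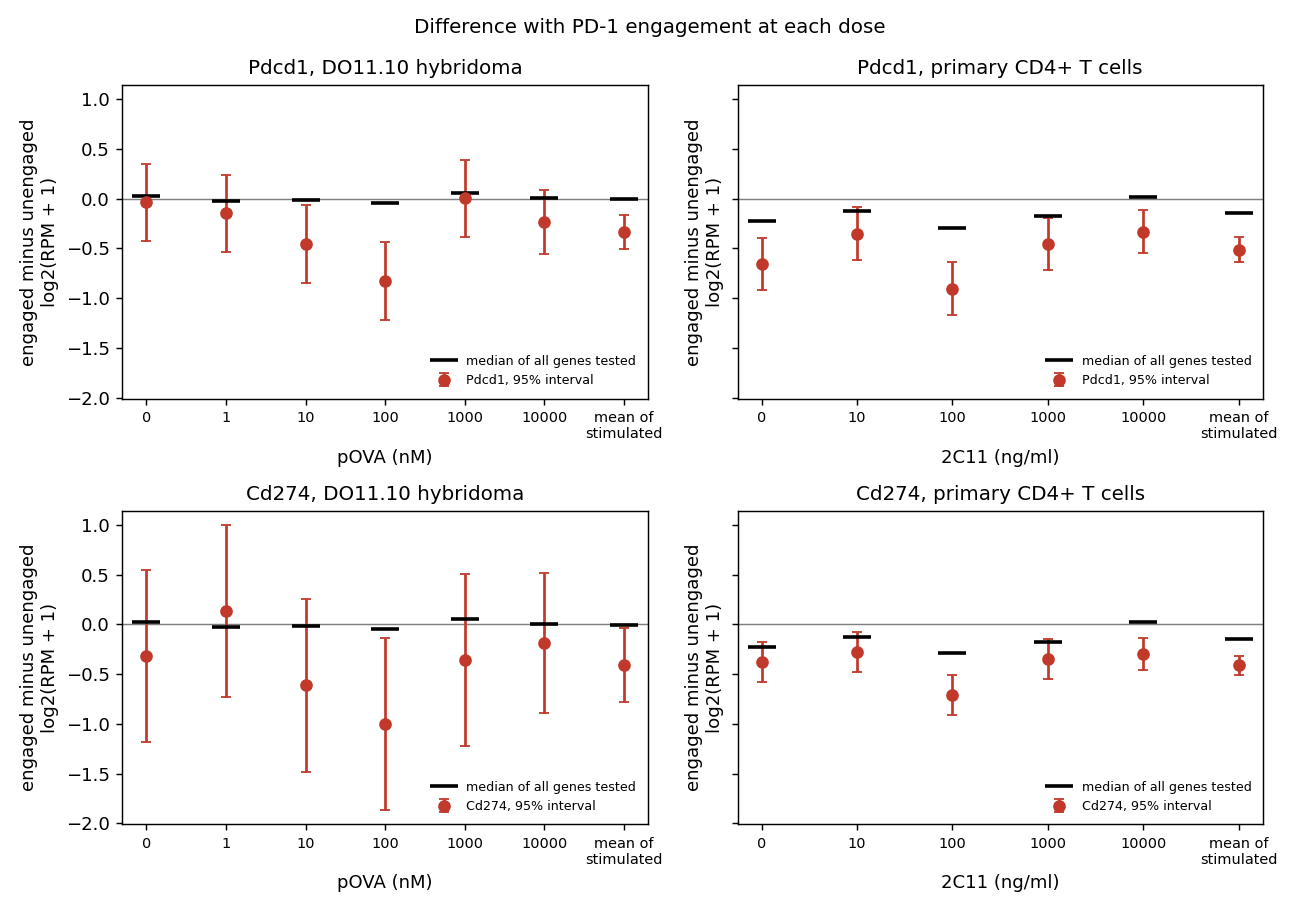
Engaged minus unengaged difference in log2(RPM + 1) with its 95% interval (red points, unblocked fit) at each dose and over the mean of the stimulated doses, for Pdcd1 (top) and Cd274 (bottom) in the hybridoma (left) and CD4 cells (right). Black bars are the median of all genes tested. In both systems the lowest point is at 100, -0.83 and -0.90 for Pdcd1 and -1.001 and -0.71 for Cd274, and in CD4 cells the median of all genes lies below 0 at 4 of 5 doses.

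In primary CD4+ T cells the same question was asked with 2C11 in place of peptide. With engagement, Pdcd1 stood at 9.04 and 9.22 RPM at 0 ng/ml, 8.77 and 10.4 at 10, 29.8 and 35.8 at 100, 62.9 and 62.6 at 1000, and 76.9, 60.8 and 59.3 at 10000 ng/ml. Without engagement it stood at 14.4 and 15.5 RPM at 0 ng/ml, 11.8 and 13.1 at 10, 60.7 and 63.4 at 100, 88.8 and 84.1 at 1000, and 75.1, 84.5 and 88.4 at 10000 ng/ml. The engaged libraries were the lower ones at each dose without overlap, except at 10000 ng/ml, where the engaged library numbered 1 lay above the lowest unengaged one. The share of all genes with this pattern was not counted.

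With engagement, Cd274 stood at 35.6 and 32.1 RPM at 0 ng/ml, 32.5 and 33.3 at 10, 55.9 and 58.3 at 100, 92.2 and 96.1 at 1000, and 97.6, 96.1 and 99.3 at 10000 ng/ml. Without engagement it stood at 41.4 and 47.2 RPM at 0 ng/ml, 39.2 and 41.0 at 10, 85.6 and 104 at 100, 121 and 119 at 1000, and 118, 129 and 114 at 10000 ng/ml. The ligand gene was read in unstimulated CD4 libraries. B cell markers there summed to 300 and 503 RPM with engagement and 323 and 381 RPM without it, and which cells gave the Cd274 tags was not tested. Its engaged and unengaged libraries did not overlap at any of the 5 doses. The share of all genes without overlap was not counted, and the median difference over all genes was below 0 at 0, 10, 100 and 1000 ng/ml.

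Stimulation raised both genes from 100 ng/ml upward in either arm. Without engagement, Pdcd1 was 1.98 higher than at dose 0 at 100 ng/ml (SE 0.13, adjusted p = 1.65e-09), 2.45 at 1000 ng/ml (SE 0.13, adjusted p = 7.38e-12) and 2.39 at 10000 ng/ml (SE 0.12, adjusted p = 1.56e-12), the last 5.23-fold. Cd274 was 1.08 higher at 100 ng/ml (SE 0.10, adjusted p = 1.6e-07), 1.42 at 1000 ng/ml (SE 0.10, adjusted p = 2.9e-10) and 1.42 at 10000 ng/ml (SE 0.09, adjusted p = 4.3e-11), the last 2.68-fold. With engagement, the 10000 ng/ml levels were 6.54-fold (Pdcd1, log2 difference 2.71, SE 0.12, adjusted p = 6.03e-13) and 2.83-fold (Cd274, 1.503, SE 0.09, adjusted p = 3.05e-11) those of the engaged dose 0.

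In CD4 cells the response to 2C11 reached most genes. Without engagement 26.4% of 10217 genes passed at 100 ng/ml, 61.0% at 1000 ng/ml and 67.7% at 10000 ng/ml. With engagement 13.6%, 54.6% and 64.8% passed. A call alone therefore says little about the pair, and their sizes are the measure: at 10000 ng/ml without engagement Pdcd1 was higher than 99.1% and Cd274 higher than 95.1% of the genes. The median of all genes was shifted by -0.15 there, and relative to it the genes were 2.54 and 1.57 higher. In the engaged arm the median was shifted by 0.12, and the genes were 2.59 and 1.39 above it. At 10 ng/ml neither gene passed in either arm, with differences of -0.24 to 0.06.

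The steps placed the levels in the order of dose up to 1000 ng/ml. The step of 10 to 100 ng/ml without engagement was 2.23 for Pdcd1 (adjusted p = 3.12e-10) and 1.21 for Cd274 (adjusted p = 3.12e-08), where 30.0% of the genes passed. With engagement it was 1.67 (adjusted p = 4.71e-08) and 0.78 (adjusted p = 3.07e-05), where 17.9% passed. The step to 1000 ng/ml was 0.92 for Pdcd1 (adjusted p = 1.41e-05) and 0.71 for Cd274 (adjusted p = 1.13e-05) with engagement, where 37.9% passed. Without engagement it was 0.47 (adjusted p = 0.00558) and 0.34 (adjusted p = 0.00716), where 41.5% passed. Without the unengaged 100 ng/ml library numbered 1 that Cd274 step was 0.21 (adjusted p = 0.151). Between 0 and 10 and between 1000 and 10000 ng/ml neither gene's step passed after adjustment in either arm.

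PD-1 engagement lowered both genes in CD4 cells. Over the mean of the stimulated doses Pdcd1 was -0.51 (SE 0.06, adjusted p = 7.76e-06) and Cd274 was -0.41 (SE 0.05, adjusted p = 4.85e-06), which on the RPM + 1 scale are differences of -29.9% and -24.7%. Of all genes 45.6% passed (458 higher and 4205 lower), and the median of all genes was -0.14. Relative to that shift the differences were -0.37 and -0.26, lower than those of all but 2.43% and 6.64% of the genes. With quantile normalization, which sets the median near 0, they were -0.34 (adjusted p = 1.69e-04) and -0.25 (adjusted p = 2.19e-04).

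At 100 ng/ml, Pdcd1 averaged 32.8 ± 4.22 RPM with engagement and 62.1 ± 1.91 RPM without it (n = 2 each), 47.1% lower. The log2 difference was -0.90 (SE 0.13, adjusted p = 9.12e-05). Cd274 averaged 57.1 ± 1.76 RPM with engagement and 94.7 ± 12.8 RPM without it (n = 2 each), 39.7% lower, which is -0.71 in log2 (SE 0.10, adjusted p = 7.07e-05). At this dose 39.2% of the genes passed and the median was -0.29. Both differences passed with quantile normalization (-0.60, adjusted p = 0.00188, and -0.43, adjusted p = 0.00304). At 10000 ng/ml Pdcd1 averaged 65.7 ± 9.77 RPM with engagement and 82.7 ± 6.87 RPM without it (n = 3 each), a difference of -0.33 (SE 0.10, adjusted p = 0.05005) just outside the threshold. It passed with quantile normalization (-0.32, adjusted p = 0.0329), edgeR (-0.34, adjusted p = 0.00996), DESeq2 (-0.38, adjusted p = 0.00468) and the B cell marker covariate (-0.45, adjusted p = 0.0185). The other alternative fits left it uncalled. Without the engaged library numbered 1, the highest of that group, it was -0.45 (adjusted p = 0.00568), and it also passed at -0.33 without any 1 of the engaged 10 or 100 ng/ml libraries (adjusted p of 0.0368 to 0.0476). Cd274 averaged 97.7 ± 1.64 RPM with engagement and 120 ± 7.86 RPM without it (n = 3 each), a difference of -0.30 (SE 0.08, adjusted p = 0.0244), where 8.48% of the genes passed. It no longer passed without the unengaged library numbered 1 or 2 or the engaged library numbered 2 or 3 (adjusted p of 0.0574 to 0.0949).

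Lower levels with engagement were also read where no 2C11 had been given. At dose 0, Pdcd1 averaged 9.13 ± 0.126 RPM with engagement and 15.0 ± 0.749 RPM without it (n = 2 each), a difference of -0.66 (SE 0.13, adjusted p = 0.00988). Cd274 averaged 33.9 ± 2.46 RPM with engagement and 44.3 ± 4.10 RPM without it (n = 2 each), a difference of -0.38 (SE 0.10, adjusted p = 0.0199). Of all genes 14.4% passed and the median was -0.23, so that relative to it the pair stood at -0.43 and -0.15. Scaled to equal quantiles the differences were -0.44 (adjusted p = 0.0509) and -0.13 (adjusted p = 0.486). Both calls were also lost with edgeR (-0.48, adjusted p = 0.0805, and -0.15, adjusted p = 0.417). The same held with DESeq2 (-0.47, adjusted p = 0.0752, and -0.14, adjusted p = 0.474). The Pdcd1 call was lost without the dose 0 library numbered 2 of the engaged arm (adjusted p = 0.0559) or of the unengaged arm (adjusted p = 0.118), and the Cd274 call without any 1 of the 4 libraries but the engaged one numbered 1 (adjusted p of 0.0523 to 0.195).

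At 1000 ng/ml the differences were -0.46 for Pdcd1 (adjusted p = 0.0153) and -0.35 for Cd274 (adjusted p = 0.0151), where 22.7% of the genes passed and the median was -0.17. Both calls were lost with quantile normalization (-0.23, adjusted p = 0.175, and -0.18, adjusted p = 0.161) and without any 1 of the 4 libraries (adjusted p of 0.0525 to 0.0965). DESeq2 lost both as well (-0.28, adjusted p = 0.103, and -0.17, adjusted p = 0.218). With edgeR only the Cd274 call was lost (-0.17, adjusted p = 0.149). At 10 ng/ml neither passed (-0.35, adjusted p = 0.155, and -0.28, adjusted p = 0.141). The engagement effect under stimulation minus that at dose 0 was 0.14 for Pdcd1 (95% interval -0.15 to 0.44, adjusted p = 0.793) and -0.03 for Cd274 (95% interval -0.25 to 0.19, adjusted p = 0.948).

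B cell markers were higher with engagement at 100, 1000 and 10000 ng/ml in CD4 cells, doses at which the pair was lower. Their sum was 575 and 656 RPM with engagement and 375 and 466 RPM without it at 100 ng/ml, and 437 and 570 RPM with and 292 and 380 RPM without engagement at 1000 ng/ml. At 10000 ng/ml it was 664, 607 and 455 RPM with engagement and 318, 503 and 304 RPM without it, and at 10 ng/ml 269 and 380 RPM with and 271 and 353 RPM without engagement. The groups did not overlap at 100 and 1000 ng/ml and overlapped at 10 and 10000 ng/ml. With their level as a covariate the engagement differences were -0.60 for Pdcd1 (SE 0.07, adjusted p = 2.00e-05) and -0.45 for Cd274 (SE 0.06, adjusted p = 2.31e-05). Without the covariate they were -0.51 and -0.41. Since marker level and engagement went together at 100 and 1000 ng/ml, the covariate cannot tell them apart. Whether B cell content bears on either gene was not tested.

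The dose curves of receptor and ligand can be laid on a common scale, the rise of each group mean above dose 0 of its own arm as a percentage of the unengaged rise at 10000. At 100 nM in the hybridoma, Pdcd1 had made 28.8% of that rise with engagement and 79.3% without it, and Cd274 26.3% with and 56.7% without. At 100 ng/ml in CD4 cells, Pdcd1 had made 35.0% with engagement and 69.6% without it, and Cd274 30.6% with and 66.3% without. At 10000 the engaged rises were 81.1% and 88.1% in the hybridoma and 83.5% and 83.9% in CD4 cells. On this scale of RPM rises, the gap between the arms was wide in the middle of the curve and narrow at its top, for both genes and in both systems.

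The dose at which a curve passed the midpoint between its own dose 0 and its own 10000 level was read by interpolation on log10 dose, with the range over leaving out each library given after it. For Pdcd1 in the hybridoma it was 179 nM with engagement (145 to 237) and 38.8 nM without it (33.2 to 47.5), a ratio of 4.61. In CD4 cells it was 142 ng/ml with engagement (115 to 170) and 54.0 ng/ml without it (50.5 to 59.0), a ratio of 2.63. These leave-one-out ranges stay clear of each other, but curves drawn from single libraries spread wider. From the libraries numbered 1 and 2 alone, the midpoints were 160 and 432 nM with and 34.2 and 60.9 nM without engagement in the hybridoma, and 249 and 93.0 ng/ml with and 47.1 and 54.1 ng/ml without engagement in CD4 cells.

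For Cd274 in CD4 cells the midpoint was at 171 ng/ml with engagement (161 to 181) and 59.3 ng/ml without it (46.1 to 84.5), a ratio of 2.89. In the hybridoma it was 188 nM with engagement (135 to 274) and 74.6 nM without it (46.5 to 133), a ratio of 2.52, with ranges that nearly meet. From the libraries numbered 1 and 2 alone, the Cd274 midpoints were 197 and 142 ng/ml with and 74.2 and 56.5 ng/ml without engagement in CD4 cells, and 306 and 39.3 nM with and 169 and 19.4 nM without engagement in the hybridoma. In the hybridoma the engaged midpoint of number 2 thus lay below the unengaged one of number 1, and the curves of the arms are told apart there only within a number. Summed over the stimulated doses, the engaged rise of Pdcd1 was smaller by 31.9% in the hybridoma (26.5 to 36.6) and by 26.9% in CD4 cells (25.2 to 29.99). That of Cd274 was smaller by 24.6% (17.0 to 30.8) and by 26.0% (21.4 to 30.1). These are rises in RPM, and in CD4 cells both genes also began lower with engagement at dose 0. As folds over their own dose 0, engaged CD4 levels at 10000 ng/ml were 7.19 for Pdcd1 and 2.88 for Cd274, against 5.52 and 2.72 without engagement. At 100 ng/ml the engaged folds were the lower ones, 3.59 and 1.69 against 4.15 and 2.14. The size of the loss thus depends on the scale. No difference between the genes or the systems was tested.

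**Figure D3:**
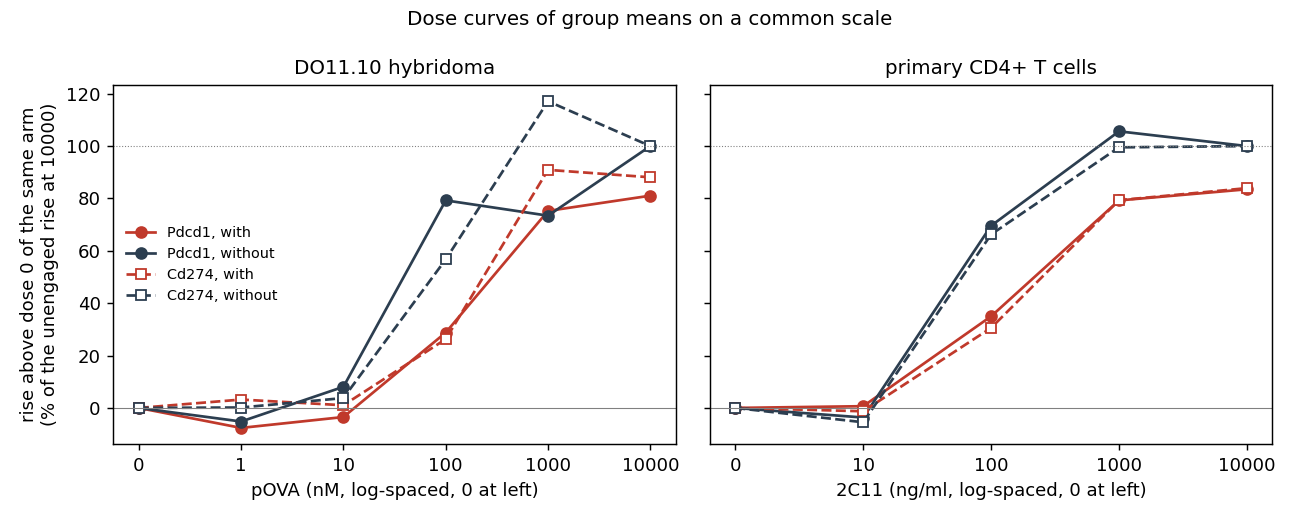
Rise of the group mean above dose 0 of the same arm, in % of the unengaged rise at 10000 (dotted line at 100), against dose in the hybridoma (left) and CD4 cells (right). Circles and full lines are Pdcd1, squares and broken lines Cd274, red with and dark without PD-1 engagement. At 100 the engaged curves stand at 26.3 to 35.0% and the unengaged ones at 56.7 to 79.3%.

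Both genes were also fitted as clusters among all clusters of each table, with their neighbours within 100 kb. In that fit 30.0% of 18014 hybridoma clusters passed for 10000 nM against dose 0 without engagement and 1.82% for the mean engagement effect, and in CD4 cells 64.5% and 35.2% of 17269. The hybridoma engagement effect of Pdcd1, of the same size, passed there (adjusted p = 0.0377), and that of Cd274 did not (adjusted p = 0.566).

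Pdcd1 had no neighbouring cluster in CD4 cells and 2 in the hybridoma, neither with a symbol. One lay 1.36 kb upstream on the opposite strand (chr1:95950434-95950576) and reached only 3.37 RPM. It stood at 0.47 and 0.80 RPM with engagement and 2.71 and 2.26 RPM without it at 100 nM, and at 0.19 and 0.24 RPM with and 0 and 0.06 RPM without engagement at dose 0. At 1000 nM it averaged 1.83 RPM with and 3.11 RPM without engagement (n = 2 each), a dose at which Pdcd1 averaged 174 RPM with and 173 RPM without engagement. The upstream start thus shared the rise with the receptor gene, though not its pattern at every dose. It rose by 1.93 at 10000 nM without engagement (SE 0.19, adjusted p = 2.27e-07) and was lower with engagement, at -1.10 for 100 nM (adjusted p = 0.0087) and -0.38 over the stimulated doses (adjusted p = 0.0266). The other lay 24.5 kb upstream and was 0.62 higher at 10000 nM (adjusted p = 0.0464).

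Around Cd274, 12 clusters were measured in the hybridoma and 5 in CD4 cells. In the hybridoma 8 of 12 were higher at 10000 nM without engagement, all 8 without a symbol and all downstream of the Cd274 start, and none was lower. In CD4 cells 4 of 5 were higher and 1 was lower. That one, listed under 5033414D02Rik, lay 0.137 kb upstream on the opposite strand (chr19:29441767-29441854) and was -0.81 at 10000 ng/ml (SE 0.17, adjusted p = 4.17e-04), beside a Cd274 start that rose. Engagement lowered 1 of the 12 and 1 of the 5 past the threshold.

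A single-base cluster on the Cd274 strand, 4.99 kb downstream (position 29446941) and without a symbol, was also measured in both systems. In CD4 cells it held 47.0 to 56.9% of the tags of the Cd274 start in the 22 libraries (median 52.0%). It stood at 26.5 and 30.4 RPM with engagement and 43.3 and 56.1 RPM without it at 100 ng/ml. It was 1.54 higher at 10000 ng/ml without engagement (SE 0.11, adjusted p = 4.91e-10) and -0.41 with engagement (SE 0.06, adjusted p = 5.32e-05), values close to those of the Cd274 start. In the hybridoma it held 10.6 to 24.2% (median 15.0%) and was 2.66 higher at 10000 nM (SE 0.24, adjusted p = 6.72e-08). In the GENCODE annotation of the newer build, Cd274 has 7 exons, and exon 2 starts 4999 bases after the start of exon 1, which is 52 bases long. Whether these tags are capped starts at exon 2 was not tested.

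In the hybridoma a plus-strand cluster without a symbol lay 87.0 kb downstream (chr19:29528928-29528994) and was about as abundant as Cd274. At 100 nM it stood at 24.4 and 30.8 RPM with engagement and 52.2 and 48.3 RPM without it. At 10000 nM it averaged 77.6 ± 2.50 RPM with engagement and 97.2 ± 4.51 RPM without it (n = 3 each), and at dose 0 it averaged 10.6 ± 1.34 RPM with and 11.08 ± 0.325 RPM without engagement (n = 2 each). It was 3.02 higher at 10000 nM without engagement (SE 0.16, adjusted p = 5.98e-11) and -0.85 with engagement at 100 nM (adjusted p = 0.0175). Its groups were tighter than those of Cd274, whose libraries numbered 2 at 10000 nM were low. In CD4 cells no cluster was measured near that position.

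**Figure D4:**
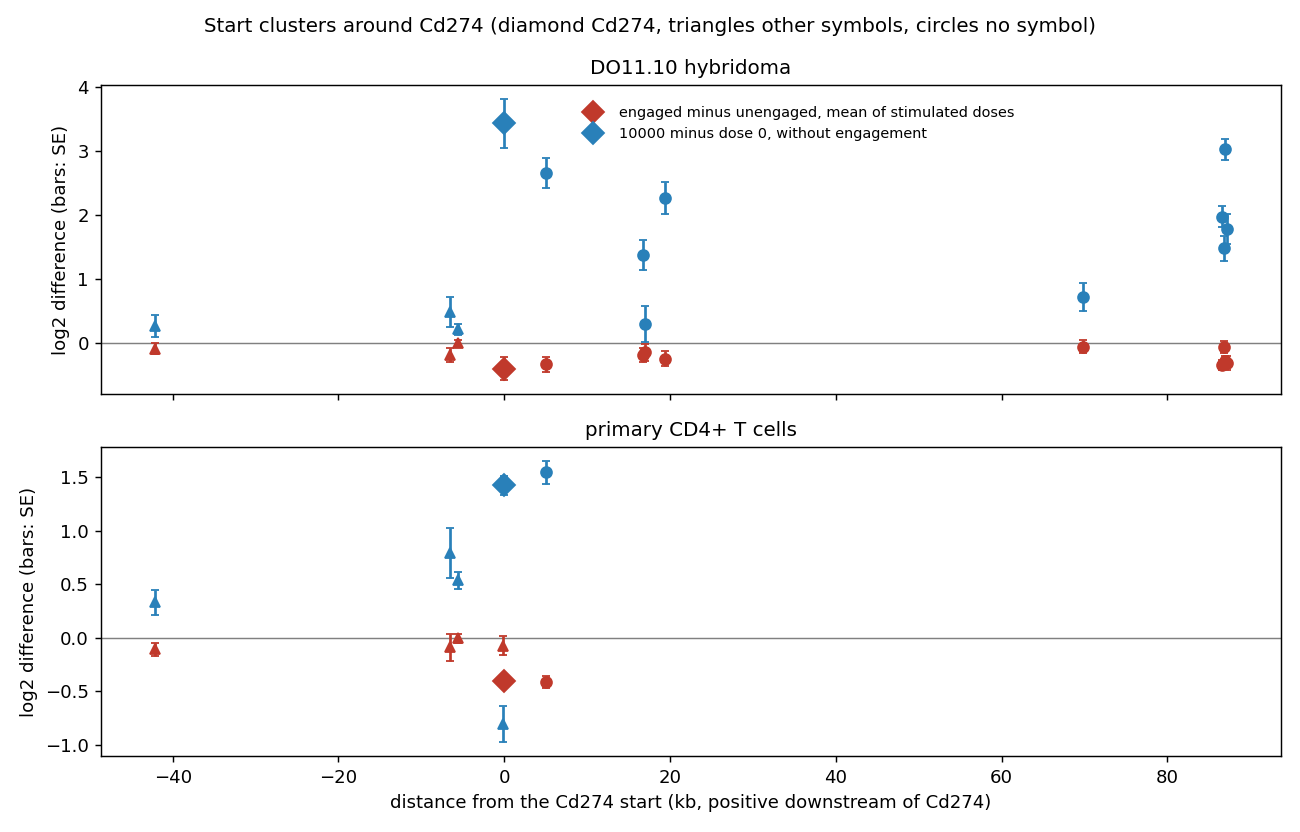
Log2 difference with its SE of each start cluster within 100 kb of Cd274 against its distance from the Cd274 start in kb (positive downstream), in the hybridoma (top) and CD4 cells (bottom). Blue is 10000 against dose 0 without engagement, red is engaged minus unengaged over the stimulated doses, diamonds are Cd274, triangles clusters with another symbol and circles clusters with none. In the hybridoma a group of clusters near 87 kb is higher with stimulation, the most abundant by 3.02.

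The other genes of the pathway were read from lists chosen with earlier results of these data known. Of 3 other ligands and binding partners, 1 was tested in each system, and no cluster was listed under Pdcd1lg2, the gene of PD-L2. Rgmb, a partner of PD-L2, averaged 0.645 RPM and was -0.33 in the hybridoma at 10000 nM without engagement (adjusted p = 0.581). Cd80, which binds CD28, CTLA-4 and PD-L1, averaged 1.27 RPM and was lower in CD4 cells at 10000 ng/ml without engagement (-0.76, SE 0.27, adjusted p = 0.0193) and -0.09 with engagement (adjusted p = 0.648).

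Of 4 regulators of the proteins (Cmtm6 and Cmtm4, which keep PD-L1 at the membrane, Fbxo38, a ubiquitin ligase for PD-1, and Stub1, one for PD-L1), Stub1 alone was lower in the stimulated hybridoma (-0.44, adjusted p = 0.0432). There 28.8% of all genes passed. In CD4 cells stimulation lowered Fbxo38 (-0.85, adjusted p = 2.07e-07) and Cmtm6 (-0.51, adjusted p = 2.57e-04), where 67.7% of all genes passed. Engagement moved none of the 4 past the threshold in the hybridoma, where 0.931% of all genes passed, and lowered all 4 in CD4 cells, where 45.6% of all genes passed. The list's median in CD4 cells was -0.26 against -0.14 for all genes, with Cmtm4 at -0.52, Stub1 at -0.34 and Cmtm6 at -0.18.

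Among signalling partners, 10 of 12 were tested in the hybridoma, where stimulation raised 2 and lowered 5 (28.8% of all genes passed) and engagement moved none (0.931% of all genes passed). Cd28, the costimulatory receptor that PD-1 opposes, was 1.42 higher (adjusted p = 1.01e-05), Zap70, a kinase of the receptor complex, was 1.08 higher (adjusted p = 5.08e-05), and Pik3cd, a lipid kinase subunit, was -1.15 (adjusted p = 8.41e-06). In CD4 cells stimulation raised 2 and lowered 8 of 12, where 67.7% of all genes passed. The adaptor Sh2d1a was at -1.78, Pik3cd at -1.59 and Prkcq, the kinase PKC-theta, at -1.05. Engagement lowered 10 and raised 1 there, where 45.6% of all genes passed, around a list median of -0.24 against -0.14 for all genes. Zap70 (-0.41, adjusted p = 3.74e-06), Ptpn11, which encodes SHP-2 (-0.34, adjusted p = 2.54e-04), and the kinase Csk (-0.30, adjusted p = 6.51e-04) had the largest differences.

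Transcription factors described for Pdcd1 mostly rose with stimulation. In the hybridoma 7 of 12 rose and 2 fell (median 1.59, against -0.18 for all genes, of which 28.8% passed). Egr2 was 6.50 higher (adjusted p = 2.22e-13), Nr4a1 5.33 higher (adjusted p = 9.07e-12) and Irf4 3.16 higher (adjusted p = 9.24e-10). Engagement lowered 3 of the 12 over the stimulated doses (median -0.16, against -0.00 for all genes, of which 0.931% passed), these same genes, with Egr2 at -0.999 (adjusted p = 4.18e-05), Nr4a1 at -0.95 (adjusted p = 9.06e-05) and Irf4 at -0.72 (adjusted p = 2.37e-04). Egr2 and Nr4a1 are early products of receptor signalling and Irf4 is an effector factor. In CD4 cells 9 of 15 rose and 4 fell (median 0.71, against -0.15 for all genes, of which 67.7% passed), with Egr2 at 5.55, Nr4a1 at 3.91 and Irf4 at 2.06.

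Engagement lowered 10 of the 15 in CD4 cells and raised none (median -0.34, against -0.14 for all genes, of which 45.6% passed). Egr2 was at -0.81 (adjusted p = 1.35e-04), Tbx21, the factor of type 1 helper cells, at -0.64 (adjusted p = 7.90e-08), and the receptor Notch1 at -0.61 (adjusted p = 3.41e-06). Of the 9 transcription factors described for Cd274, in the hybridoma Rel, an NF-kB subunit, was the 1 that rose (2.09, adjusted p = 2.98e-06). Another 1 fell, where 28.8% of all genes passed. Engagement moved none of the 9 there, where 0.931% of all genes passed. In CD4 cells 4 rose and 4 fell, where 67.7% of all genes passed, with Myc at 3.35 and Irf2 at -1.51. Engagement lowered 7 of the 9 there (median -0.30, against -0.14 for all genes, of which 45.6% passed), with Nfkb1 at -0.59, Rel at -0.38 and Hif1a at -0.36.

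The genes whose log2(RPM + 1) was most like that of the pair over all libraries of a system are given as a description, by Pearson's r among 4626 hybridoma and 4721 CD4 genes of at least median abundance (predicted gene models left out). All points of a system share the dose design. Over the 26 hybridoma libraries Pdcd1 was most like Obfc2a (0.990), Trib1 (0.988), Nfkbid (0.986), Dusp4 (0.984) and Tnfrsf9 (0.982). Cd274 was most like Plk3 (0.981), Med14 (0.980), Phlda1 (0.973), Elk3 (0.972) and Socs1 (0.972). The pair itself correlated at 0.921, and Cd274 came at rank 103 for Pdcd1.

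Over the 22 CD4 libraries Pdcd1 was most like Tagap (0.990), Egr2 (0.990), Plk3 (0.989), Lcp2 (0.989) and Tnf (0.989). Cd274 was most like Prmt3 (0.990), Pdcd1 (0.988), Fosl2 (0.988), Rgs16 (0.988) and Kdm2b (0.987). In CD4 cells the receptor gene was thus at rank 2 of the candidates for likeness to the ligand gene.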

How the data were processed

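Per the labels' protocols, total RNA was taken from purified T cells with TRIzol. The authors deposited RPM values per tag cluster and library. The aligners named in the submitters' processing notes are HISAT2 2.0.5 and BWA 0.7.12, with build mm9. The sources used here do not give how clusters were called and named. Low values are whole multiples of 1 step, and 99.98 to 100% of values were whole tags within 0.1 tag.

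Clusters with the same single symbol were summed. For either system, log2(RPM + 1) was modelled in R 4.3.3 by limma 3.58.1 with an intensity trend and a mean for every combination of dose and engagement. This scale understates changes of low genes. Two-sided tests covered genes reaching 1 RPM in 2 or more libraries, adjusted over 10094 and 10217 genes, and an adjusted p under 0.05 was called. Tests on simulated data recovered 91 and 96% of genes changed by 1 log2 unit at the top dose (hybridoma, CD4 cells), with 7 and 12 false calls. The changed genes were drawn from those above median abundance. All genes had the same fixed spread, without deviations shared within a library, so recovery in the real data may be lower. Recovery was not tested for the other comparisons, or for genes that vary between libraries as much as Cd274 in the hybridoma. edgeR 4.0.16 (TMM) and DESeq2 1.42.0 on the recovered tags, quantile normalization and a B cell marker covariate were alternatives.

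Deviations from the group means of engaged and unengaged libraries with the same dose and number correlated at 0.314 to 0.788 over the 6 hybridoma doses, so pairs were blocked there. The highest was at dose 0, where both libraries numbered 2 were rich in B cell markers. The labels give only the number, so the pairing is inferred, and blocked p-values rest on it. For comparisons between doses, the replicate block was instead replicate number as a term shared by all doses. Pathway genes named are the 3 largest called changes of a list. The values of 1 listed gene are not reported here. Members and lists were chosen with earlier results of these data known. Counting error is 13.6% at the lowest Cd274 value of the hybridoma, and no 2 libraries of a group agreed within sampling noise.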

Additional observations from a re-analysis of the deposited data

Results flagged for a closer look

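The lower Pdcd1 level with PD-1 engagement at 100 nM pOVA in the hybridoma differed from the engagement effect at dose 0 by -0.792 on the log2(RPM + 1) scale when the pairs of libraries were blocked (SE 0.11, adjusted p = 0.00318). Without the block the adjusted p was 1.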

How the results depend on the processing

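Each of 90 results was refitted, 45 of them called. A pseudocount of 0.1 RPM and no filter changed no call and no direction. Stimulation calls at 10000 held under every alternative. For the hybridoma engagement mean, Pdcd1 passed with quantile normalization (-0.31), edgeR (-0.330), DESeq2 (-0.332), the replicate block (-0.333), the B cell covariate (-0.348) and the cluster fit (-0.333). Cd274 passed with the replicate block alone (-0.405). The block changed no CD4 call, where same-numbered libraries correlated at 0.0372 to 0.254. In both systems the labels give such libraries only a shared number. The engagement effect minus that at dose 0 reversed for hybridoma Cd274 with edgeR (0.020) and DESeq2 (0.0083).

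Other reversals concerned uncalled values near 0. For Pdcd1 they were 10 nM with engagement (DESeq2, 0.0074), hybridoma engagement at dose 0 without both libraries rich in B cell markers (0.028, chosen after seeing the data) and at 1000 nM (quantile -0.013, edgeR -0.051, DESeq2 -0.053, covariate -0.013), and steps to 1000 nM (edgeR 0.045, DESeq2 0.044) and, in CD4 cells, to 10000 without engagement (quantile 0.051, edgeR 0.074, DESeq2 0.093) and with it (quantile -0.041, DESeq2 -0.0024). For Cd274 they were CD4 steps to 10000 without (covariate -0.016) and with engagement (quantile -0.0088, DESeq2 -0.018).

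Calls lost without single libraries stand with the results. Leaving out single libraries gave these ranges where a sign changed or a result came to pass. Hybridoma Pdcd1: 10 nM engaged -0.33 to 0.032, engagement at dose 0 -0.18 to 0.10, at 1 nM -0.35 to 0.05, at 1000 nM -0.15 to 0.16, steps to 1000 -0.18 to 0.042 and, engaged, to 10000 -0.088 to 0.22, engagement at 100 nM -0.94 to -0.72 (adjusted p of 0.0361 to 0.0446 without either unengaged dose 0 library or the engaged 10000 nM library numbered 3), engaged step to 1000 0.61 to 0.92 (0.0435 without that last library), engagement mean -0.37 to -0.29 (adjusted p of 0.0358 to 0.0434 without the unengaged library numbered 2 at 1 or 10 nM or 3 at 10000 nM, or the engaged one numbered 1 at 10 or 1000 nM or 2 at 10000 nM). Hybridoma Cd274: 1 nM -0.22 to 0.31, 10 nM engaged -0.060 to 0.39, engagement at 10000 -0.58 to 0.19, engaged step to 1000 1.14 to 2.09 (adjusted p of 0.0428 and 0.0481 without the unengaged or the engaged 10000 nM library numbered 2), steps to 10000 -0.57 to 0.086 and, engaged, -0.37 to 0.24, effect minus dose 0 -0.35 to 0.18. CD4 Pdcd1: 10 ng/ml engaged -0.052 to 0.17, engaged step to 10000 -0.063 to 0.12. CD4 Cd274: 10 ng/ml engaged -0.11 to 0.033, step to 10000 -0.049 to 0.040, effect minus dose 0 -0.12 to 0.060.

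Genes called for the hybridoma engagement mean numbered 94, against 143 with DESeq2, 657 with the replicate block and 151 with the covariate. In CD4 cells 4663 compare with 2741 (quantile), 2959 (edgeR) and 2596 (DESeq2). For 10000 nM 2912 compare with 1743 without both dose 0 libraries numbered 2. A sum that takes in clusters of several symbols was not run, since these symbols are not spelled out. Blocked fits were not repeated without single libraries.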
